A study of Mus musculus with 2 samples.

Results

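The 6 genes described here encode enzymes that attach, remove and recycle the sugar N-acetylglucosamine (GlcNAc): Ogt, Oga, Nagk, Gnpda1, Gnpda2 and Amdhd2. They were taken by symbol, and 6 of the 34097 genes listed in both count matrices matched, each on 1 row. The study profiled dissociated cells of 2 mouse tumours by droplet single-cell RNA sequencing on the 10x Genomics platform, to see how lowering Gfpt2 affects the immune cells of the tumour. Both samples are labelled as lung cancer xenografts of LLC, the Lewis lung carcinoma line of the mouse. The control tumour is labelled NC and control. The knockdown tumour is labelled SH and carried a short hairpin RNA against GFPT2. Mouse strain, sex and age, the number of hairpins or clones and the number of animals behind each library are not given in the sources used here. Each group is 1 library, so no difference between the tumours has a replicate check and no test between them was made.

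OGT links GlcNAc from the donor UDP-GlcNAc to serines and threonines of nuclear and cytosolic proteins, and OGA takes it off again. The donor is made by the hexosamine pathway, whose entry step, run by the paralogs GFPT1 and GFPT2, turns fructose-6-phosphate into glucosamine-6-phosphate. Salvage starts instead from GlcNAc freed in lysosomes: NAGK phosphorylates it to GlcNAc-6-phosphate. AMDHD2 removes the acetyl group from GlcNAc-6-phosphate, and GNPDA1 and GNPDA2 deaminate glucosamine-6-phosphate back to fructose-6-phosphate, against the direction of GFPT. Macrophages are rich in lysosomes and take up and degrade glycoproteins.

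Cells were placed in classes from their unique molecular identifiers (UMIs, each standing for 1 captured transcript). Macrophages had at least 10 UMIs of C1qa, C1qb and C1qc per 10000, T cells at least 2 UMIs of Cd3d, Cd3e and Cd3g, and tumour-like cells at least 5000 UMIs, no Ptprc and under 5 Lyz2 per 10000. After filtering, 10662 control and 11450 knockdown cells remained, with 138972698 and 118549975 UMIs. The classes held 4986 and 5211 tumour-like cells, 3990 and 4556 macrophages, and 786 and 676 T cells. Median UMIs per cell in the knockdown were lower in tumour-like cells (14667 against 18744) and in macrophages (3954 against 5380). The libraries shared 37 cell barcodes, 0.309% of the control's and 0.288% of the knockdown's. Levels below are CPM, the counts per 1000000 UMIs of the class, with a 95% exact Poisson interval in brackets that covers counting error only. A level depends on how well a gene's 3′ end is captured, so levels were compared between classes and libraries, not between genes.

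The targeted gene was checked first. Gfpt2 gave 244 UMIs over all kept control cells, 1.76 CPM (1.54 to 1.99), and 68 in the knockdown, 0.574 CPM (0.445 to 0.727). A small subset of tumour-like cells with Krt16 or Klk8 (summed, 2 or more per 10000) held 145 of the control UMIs in 257 cells. In the knockdown it held 3 UMIs in 68 cells. Those with Csmd3 or Robo2, which may overlap this subset, held 19 UMIs in 53 control cells (24.6 CPM). In the knockdown they held 1 UMI in 74 cells (1.11 CPM). Monocytes held 12 UMIs in the control (13.5 CPM) and 0 in the knockdown. In tumour-like cells outside the Krt16 or Klk8 subset Gfpt2 gave 67 and 54 UMIs. These were 0.687 CPM (0.533 to 0.873) for control against 0.625 (0.469 to 0.815) for knockdown cells, with overlapping intervals. Its paralog Gfpt1 stood at 31.9 CPM (control) and 33.1 CPM (knockdown). The classes also carried RNA of other classes. C1qa, a macrophage gene, stood at 50.3 and 57.0 CPM in tumour-like cells, 0.577% and 0.769% of its macrophage level. Hmga2, a chromatin protein gene high in the tumour-like cells (220 and 218 CPM), stood at 32.8 CPM in control macrophages and 88.2 CPM in knockdown macrophages, and at 111 and 92.7 CPM in T cells. The epithelial genes Krt8, Krt18 and Epcam gave at most 9 UMIs each over all tumour-like cells of either library, so the class is named by its rule. Results are therefore also given for purer classes, chosen after seeing these values: tumour-like cells with no C1q or Cd3 UMI (625 and 790 cells), macrophages with C1q at 50 per 10000 or more, in no other gate and without Hmga2 (3165 and 2905 cells), and T cells without Hmga2, with C1q under 10 per 10000 and outside the tumour-like gate (593 and 483 cells). Cells that Scrublet, a doublet finder, called doublets by its own threshold were dropped from the purer classes too. Before filtering that threshold called 1089 control cells (9.09%) and 2808 knockdown cells (21.8%).

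Amdhd2 had the widest class difference of the 6 genes, and its upstream sequence is shown because both E-box motifs searched for were found in its window and in none of the others matched. The 217 bases before its first annotated start were read from RefSeq's mouse promoters (GRCm38.p6, chr17:24163767-24163983, minus strand), with both copies of CACGTG in capitals.
Amdhd2: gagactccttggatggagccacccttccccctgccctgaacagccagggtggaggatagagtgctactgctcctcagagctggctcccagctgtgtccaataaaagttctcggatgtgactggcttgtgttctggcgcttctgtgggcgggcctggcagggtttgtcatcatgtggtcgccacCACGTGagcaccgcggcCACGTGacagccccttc
CACGTG is the E-box read by MYC and by the MiT/TFE factors of lysosomal genes, and the full 300-base window held 3 copies. It occurs in 7.15% of the 32851 mouse windows of that length. The longer TCACGTGA, the core of the lysosomal CLEAR element, which contains CACGTG, occurs in 0.974% of windows and was present in 1 copy in that of Amdhd2, outside the bases printed. RefSeq windows matched 5 of the 6 genes, all but Gnpda1, and neither motif was in those of Ogt (2 windows), Oga, Nagk or Gnpda2. GAGGAAGT, an ETS site of the PU.1 type (3.20% of windows), TGACTCA, an AP-1 site (5.20%), and TATAAA (13.6%) were in none of these windows, each searched on both strands.

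**Figure D1:**
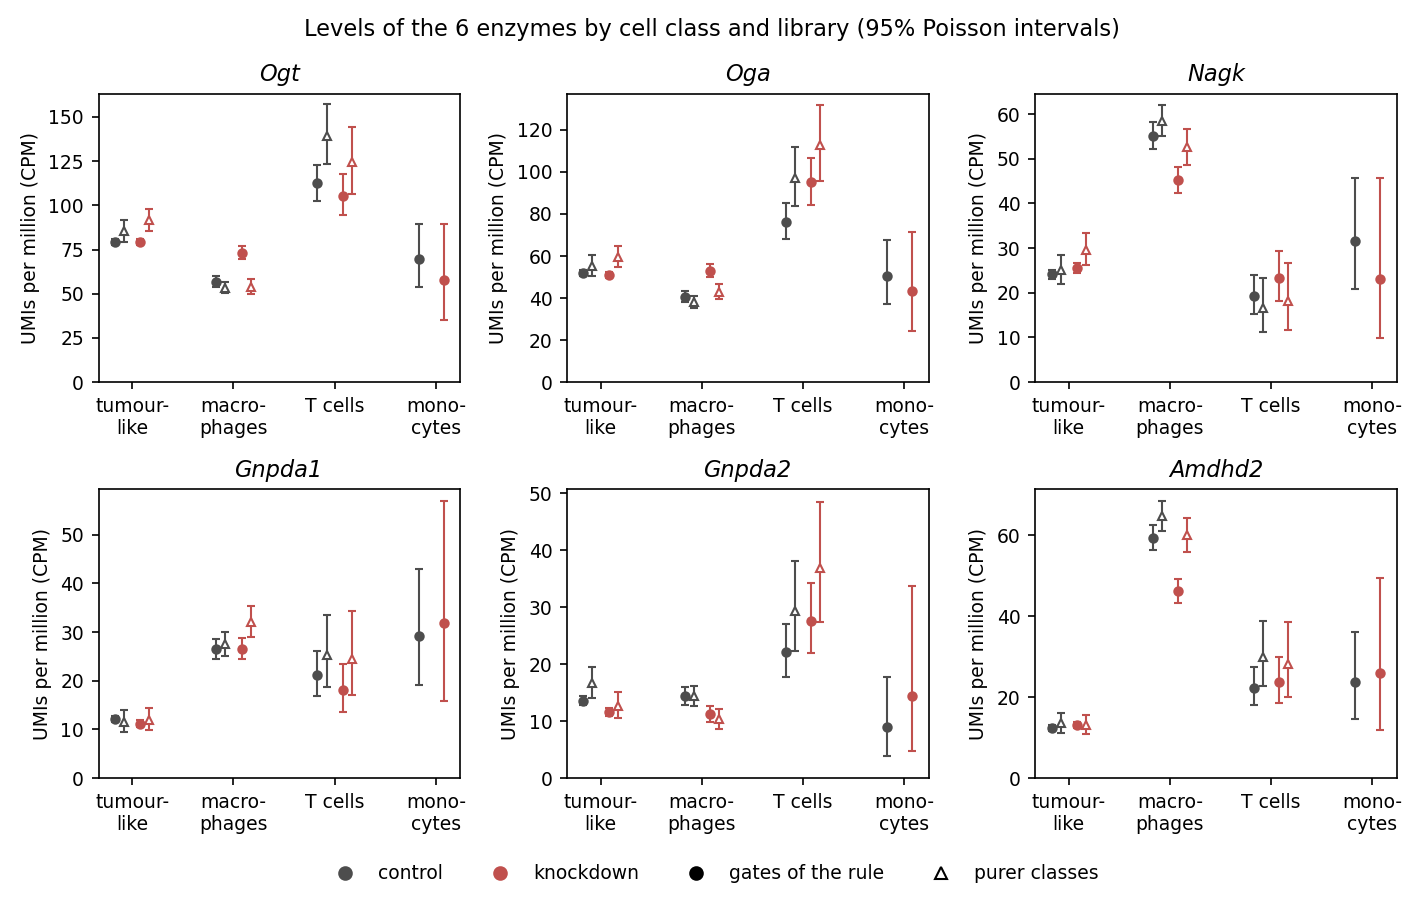
Levels of each enzyme gene (CPM, linear axis from 0) in tumour-like cells, macrophages, T cells and monocytes of the control (grey) and knockdown (red) library. Points are the classes as gated, triangles the purer classes, and bars 95% Poisson intervals; Amdhd2 and Nagk are highest in macrophages, Ogt and Oga in T cells.

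Among the 3 main classes the cycling enzymes were highest in T cells. Ogt, the transferase, stood in the control at 112 CPM (102 to 123) in T cells, 79.2 (77.4 to 80.9) in tumour-like cells and 56.8 (53.8 to 59.9) in macrophages. In the knockdown it stood at 106 CPM (94.3 to 118), 79.2 (77.4 to 81.1) and 73.2 (69.6 to 76.9) in the same order of classes. The order of the classes was the same in both libraries, with no overlap of the intervals, and the gap between macrophages and tumour-like cells was narrower in the knockdown. Oga, the hydrolase, stood in the control at 76.4 CPM (68.2 to 85.2) in T cells, 51.9 (50.6 to 53.3) in tumour-like cells and 40.6 (38.1 to 43.2) in macrophages. In the knockdown Oga stood at 95.02 CPM (84.4 to 107) in T cells, and its intervals in macrophages (52.9, 49.9 to 56.1) and tumour-like cells (51.1, 49.6 to 52.6) overlapped. In the purer classes both genes had the order T cells, tumour-like cells, macrophages in both libraries: Ogt 139, 85.2 and 53.5 CPM in the control and 124, 91.4 and 54.0 in the knockdown. The corresponding Oga values were 97.1, 55.2 and 37.9 CPM, and 113, 59.8 and 42.9.

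Nagk, the salvage kinase, and Amdhd2, the deacetylase of the next intermediate, were highest in macrophages among these 3 classes. Nagk stood at 55.2 CPM (52.2 to 58.2) in control and 45.2 (42.4 to 48.1) in knockdown macrophages. It stood at 24.1 (23.2 to 25.1) and 25.6 (24.5 to 26.6) in tumour-like cells and at 19.2 (15.2 to 23.9) and 23.3 (18.2 to 29.4) in T cells, classes whose intervals overlapped. Amdhd2 stood at 59.3 CPM (56.3 to 62.5) in control and 46.1 (43.3 to 49.1) in knockdown macrophages. T cells came next, at 22.3 (18.0 to 27.4) and 23.7 (18.5 to 29.8), and tumour-like cells were lowest, at 12.4 (11.8 to 13.1) and 13.1 (12.3 to 13.9). The 3 levels of Amdhd2 did not overlap in either library.

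The deaminase paralogs differed from each other in their class pattern. Gnpda1 stood at 26.5 CPM (24.4 to 28.6) in control and 26.6 (24.4 to 28.9) in knockdown macrophages, against 12.1 (11.4 to 12.8) and 11.1 (10.5 to 11.9) in tumour-like cells. T cells lay between, at 21.1 (17.0 to 26.0) and 18.1 (13.6 to 23.5), with intervals that met no tumour-like one and overlapped that of macrophages in the control alone. Gnpda2 was instead highest in T cells of the 3 classes, at 22.1 CPM (17.8 to 27.1) in the control tumour against 27.6 (22.0 to 34.2) after knockdown. Its macrophage levels of 14.4 (12.9 to 16.0) and 11.2 (9.83 to 12.7) overlapped the tumour-like levels of 13.6 (12.9 to 14.3) and 11.5 (10.8 to 12.3). Gnpda1 counts could include reads of its near copy Gm8615: of 903 stretches of 25 bases in the last 500 bases of its transcripts, 159 (17.6%) also occur in Gm8615, which has no row in the matrices. Gnpda1 and Gnpda2 shared no such stretch, and the other 5 genes shared none with any gene.

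Among the small myeloid and lymphoid classes, monocytes (148 and 56 cells, with Ly6c2, Plac8 or Ccr2 and C1q under the macrophage gate) had Amdhd2 at 23.7 CPM (14.6 to 36.2) and 26.0 (11.9 to 49.4). Only the control interval lay wholly below that of macrophages of the same library. Nagk in monocytes stood at 31.5 (21.0 to 45.6) and 23.1 CPM (9.99 to 45.6). Gnpda1 in monocytes, at 29.3 (19.1 to 42.9) and 31.8 (15.9 to 56.9), overlapped its macrophage level. Dendritic cells (53 and 46 cells) had Nagk at 53.9 (32.9 to 83.2) and 46.5 CPM (29.1 to 70.4), but Amdhd2 at 10.8 (2.94 to 27.6) and 19.0 CPM (8.69 to 36.1), below the macrophage interval in both libraries. NK cells (45 and 58 cells) had Ogt at 96.9 (64.9 to 139) and 115 CPM (82.9 to 156), overlapping T cells. Their Amdhd2 stood at 30.1 CPM (13.7 to 57.1) in the control, and in the knockdown at 52.1 (31.3 to 81.3), with an interval that holds the macrophage level. C1qa moved with it, from 76.8 CPM in control to 1039 CPM in knockdown NK cells, and its part in the Amdhd2 level was not tested. Gnpda2 in NK cells (30.1 and 27.4 CPM) and in dendritic cells (29.6 and 23.2 CPM) had intervals that hold the T cell level of the same library. The 13 and 14 endothelial cells had Nagk at 78.8 CPM (37.8 to 145) and 67.2 (27.0 to 138), Gnpda2 at 39.4 (12.8 to 91.9) and 38.4 (10.5 to 98.3), and Oga at 102 (54.5 to 175) and 28.8 CPM (5.94 to 84.2). These point values of Nagk and Gnpda2 lay above those of the 3 main classes, with intervals wide enough to hold the highest of them. C1qa stood at 654 and 230 CPM in the endothelial cells.

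Per cell these are sparse counts, and the share of cells with a UMI follows depth. Ogt was seen in 72.4% of control and 67.4% of knockdown tumour-like cells, but in 23.1% and 22.7% after each cell was thinned to 3000 UMIs. Amdhd2 was seen in 26.7% and 17.8% of macrophages, and in 17.5% and 14.1% of those thinned, which left out 913 and 1705 shallower macrophages. Thinned tumour-like cells, of which none was left out, held an Amdhd2 UMI in 3.99% and 3.82%. No class known to lack these enzymes was available to set a background share. The most UMIs in any cell were 17 for Ogt, in a control T cell.

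Differences between classes were then compared as ratios within each library, counting a gene where it passed 2-fold in the same direction in both. Amdhd2 was 4.77-fold higher in macrophages than in tumour-like cells in the control and 3.52-fold in the knockdown, and 4.78-fold and 4.57-fold in the purer classes. Gnpda1 was 2.19-fold and 2.39-fold higher, and 2.38-fold and 2.66-fold in the purer classes. Nagk was 2.29-fold higher in the control but 1.77-fold in the knockdown, with nearly the same ratios in the purer classes (2.33 and 1.77). So 2 of the 6 genes were counted as higher in macrophages, where 16% of the 12721 genes with at least 100 UMIs were. None was lower, against 15.5% of all genes, and in the purer classes the same genes were counted (18.7% of all genes higher, 21.5% lower). With doublets left in, Gnpda1 was no longer counted and Amdhd2 alone was. The median log2 ratio was 0.51 over the 6 genes and -0.27 over all genes tested. Ogt was on the other side: tumour-like cells held 1.39-fold (control) and 1.08-fold (knockdown) more than macrophages, and 1.59-fold and 1.69-fold more in the purer classes.

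T cells differed from both other classes without passing 2-fold in both libraries as gated. Against tumour-like cells, Gnpda2 was 1.62-fold and 2.39-fold higher, Amdhd2 1.80-fold and 1.81-fold, Gnpda1 1.75-fold and 1.62-fold, Oga 1.47-fold and 1.86-fold, and Ogt 1.42-fold and 1.33-fold. Nagk lay the other way, with log2 ratios of -0.33 and -0.13 as gated and -0.60 and -0.71 in the purer classes, all with ranges that include 0. None of the 6 was counted (11.7% of 12256 genes were higher and 7.42% lower). In the purer classes Gnpda1 (2.19 and 2.04) and Amdhd2 (2.21 and 2.15) were counted as higher, against 12.9% of genes higher and 18.5% lower. Against macrophages none was counted either (5.64% of 10220 genes higher, 10.2% lower). In the purer classes 5 of the 6 were: Ogt (2.61 and 2.30), Oga (2.56 and 2.63) and Gnpda2 (2.05 and 3.58) were higher in T cells, while Nagk was 3.54-fold and 2.91-fold and Amdhd2 2.16-fold and 2.13-fold higher in macrophages. Among all genes of that comparison 12.2% were higher and 14.1% lower. Macrophage RNA moved with this result: the 10 macrophage markers summed to 7138 and 8428 CPM in T cells as gated and to 1369 and 1095 in the purer T cells, against 85189 and 70592 in macrophages. All 10 exceeded 10 CPM in T cells as gated and 6 in the purer ones, with none at 0, and their part in the levels above was not tested. Fibroblast markers, which the tumour-like cells also expressed, moved with it too. The 6 of them summed to 1048 and 859 CPM in T cells as gated and to 481 and 138 in the purer ones. As gated 4 and 3 of them were over 10 CPM, and 2 in each purer class (Lum at 0 in both, Col1a1 in the knockdown). The 7 LLC and epithelial markers summed to 327 and 337 CPM and to 229 and 306, and 3 were over 10 CPM except in purer knockdown T cells, with 2 (Krt8 at 0 in each setting). The purer gate sets Hmga2, 1 of the 7, to 0, and the others summed to 216 and 245 CPM as gated, no more than in the purer T cells. T cells with an Hmga2 UMI were 10.1% of the class in each library and held 38.7% and 35.7% of its UMIs. Amdhd2 stood at 11.2 and 17.5 CPM in them and at 29.4 and 27.1 CPM in those without. Ogt (93.1 and 71.9 CPM with, 125 and 124 without), Oga (50.9 and 74.6 with, 92.5 and 106 without) and Gnpda2 (11.8 and 21.2 with, 28.6 and 31.2 without) were on the same side. The part of tumour or fibroblast RNA was not tested.

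**Figure D2:**
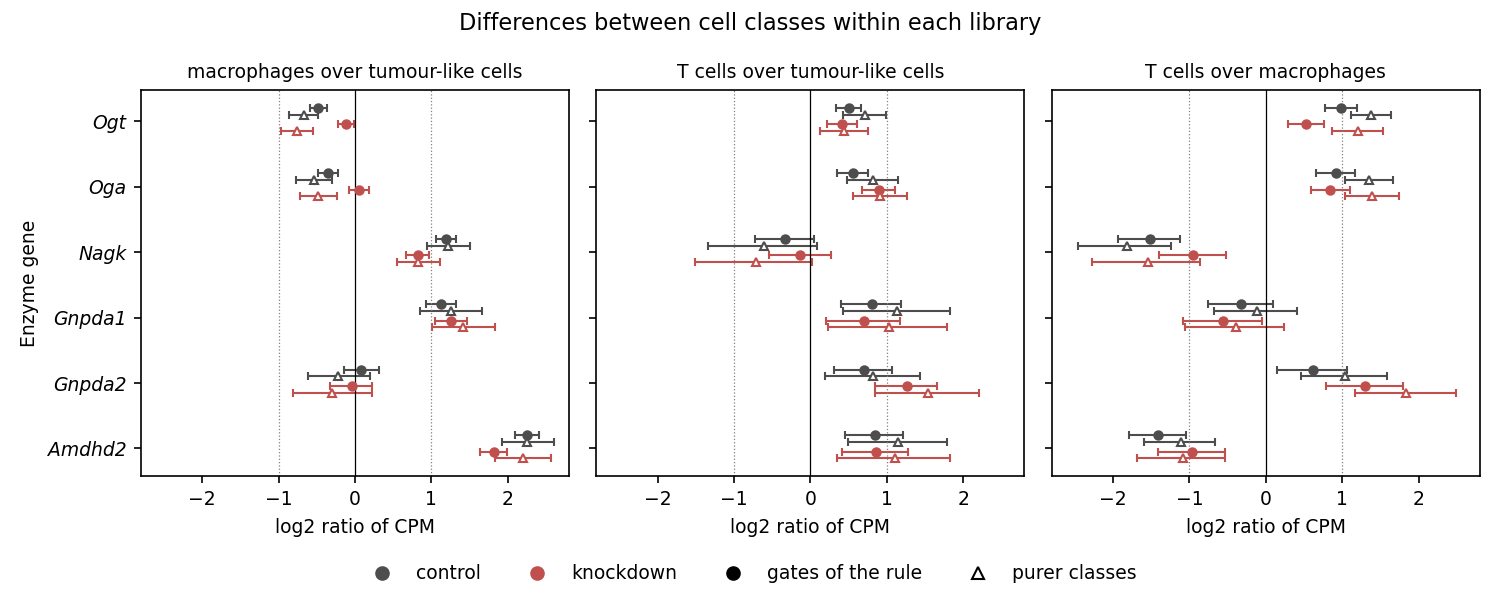
Log2 ratios of CPM between classes within the control (grey) and knockdown (red) library for each enzyme gene. Points are the classes as gated, triangles the purer classes, bars the range that both Poisson intervals allow, and dotted lines 2-fold; Amdhd2 and Gnpda1 lie to the right of the 2-fold line for macrophages over tumour-like cells in all 4 settings.

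The make-up of each pair of related genes was also read as a share of the pair's UMIs, which needs no scaling between libraries. Oga made up 39.6% (95% exact binomial interval 38.8 to 40.4) of Ogt plus Oga UMIs in control and 39.2% (38.3 to 40.1) in knockdown tumour-like cells. In macrophages it made up 41.7% (39.7 to 43.7) and 42.0% (40.1 to 43.9). In T cells the control share was 40.5% (37.0 to 44.0) and the knockdown share 47.4% (43.4 to 51.4), intervals that overlapped at their ends. The tumour-like and macrophage intervals also overlapped in both libraries, in the knockdown only at 40.1%. Gnpda1 made up 64.7% (61.6 to 67.8) and 70.4% (67.1 to 73.5) of the deaminase pair in macrophages, above 47.1% (45.1 to 49.0) and 49.1% (46.9 to 51.3) in tumour-like cells. In purer macrophages its control share was 65.6% (62.2 to 68.9) and its knockdown share 75.7% (71.9 to 79.2), with no overlap. T cells had 48.9% (41.4 to 56.4) and 39.6% (31.4 to 48.2). Monocytes had 76.5% (58.8 to 89.3) in the control, from 34 UMIs of the pair, and 68.8% (41.3 to 89.0) in the knockdown, from 16, intervals that hold the macrophage shares. Amdhd2 made up 34.0% and 33.9% of Amdhd2 plus Nagk UMIs in tumour-like cells and 51.8% and 50.5% in macrophages. In T cells it made up 53.8% (46.0 to 61.4) and 50.3% (41.9 to 58.8). In purer T cells its share was 64.4% (53.7 to 74.3) and 60.9% (47.9 to 72.9). Purer macrophages had 52.5% (50.5 to 54.6) and 53.3% (50.7 to 55.9), and purer tumour-like cells 35.0% and 30.7%.

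**Figure D3:**
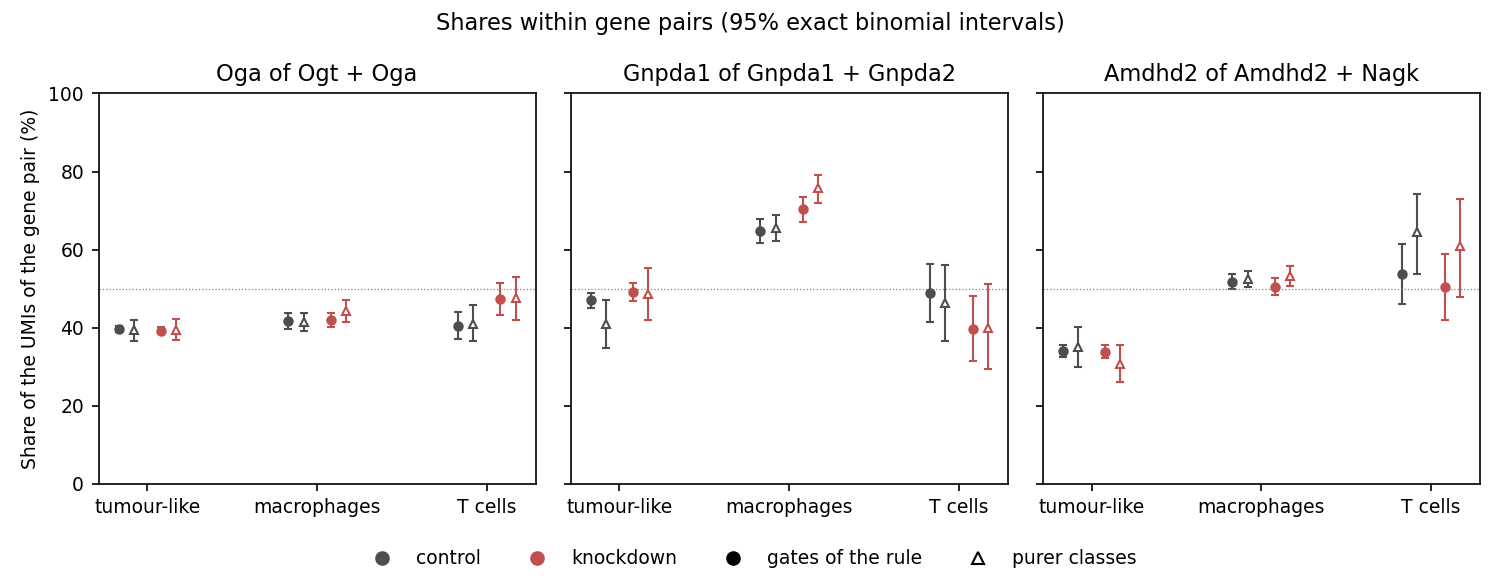
Share of UMIs (percent, axis from 0 to 100) that Oga holds of Ogt plus Oga, Gnpda1 of Gnpda1 plus Gnpda2, and Amdhd2 of Amdhd2 plus Nagk, by class and library. Points are the classes as gated, triangles the purer classes, bars 95% exact binomial intervals, and the dotted line marks equal UMIs; of the 3 classes drawn, macrophages have the highest Gnpda1 share in both libraries.

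The knockdown was compared with the control in each class, counting a gene where its log2 ratio was beyond 0.32 in either direction and it had at least 100 UMIs in 1 of the libraries. In tumour-like cells none of the 6 genes passed (9.89% of 12372 genes did in either direction, 7.95% higher and 1.94% lower). The log2 ratios were 0.00 for Ogt (range allowed by both Poisson intervals -0.06 to 0.07), -0.02 for Oga (-0.10 to 0.06), 0.08 for Nagk (-0.03 to 0.20), -0.12 for Gnpda1 (-0.29 to 0.05) and 0.07 for Amdhd2 (-0.09 to 0.24). Gnpda2 alone had a range that left out 0, at -0.24 (-0.40 to -0.07), from 1411 UMIs in the control to 1012 in the knockdown. Gfpt2 in the same cells had a log2 ratio of -1.65 (-2.25 to -1.08), but of -0.14 (-0.90 to 0.61) outside the Krt16 or Klk8 subset. In the purer tumour-like cells Gnpda2 passed as lower, at -0.40 with a range that includes 0 (-0.90 to 0.10), and none of the 5 others passed (6.51% of genes higher, 3.52% lower).

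In macrophages 4 of the 6 passed as gated: Ogt and Oga higher, where 22.7% of 10753 genes were, and Gnpda2 and Amdhd2 lower, where 5.51% were (28.2% in either direction). The log2 ratio was 0.37 for Ogt (0.22 to 0.51) and 0.38 for Oga (0.21 to 0.56). It was -0.36 for Amdhd2 (-0.53 to -0.20), -0.36 for Gnpda2 (-0.70 to -0.02), -0.29 for Nagk (-0.46 to -0.12) and 0.01 for Gnpda1 (-0.23 to 0.24). Other scalings move all macrophage ratios down by about 0.14 (log2): under them Ogt and Oga no longer passed, and Nagk passed as lower beside Gnpda2 and Amdhd2. The median over the 6 genes was -0.14 against 0.10 over all genes. With doublets left in, none of the 6 genes passed in macrophages, and Gnpda2 stood at -0.25.

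Hmga2 moved with these differences, and what part tumour RNA has in them was not tested. Macrophages with an Hmga2 UMI were 9.57% of the class in the control and 17.7% in the knockdown, and in them Ogt stood at 59.8 and 99.0 CPM, against 56.3 and 63.8 CPM in those without. Oga stood at 46.6 and 61.2 CPM in macrophages with an Hmga2 UMI and at 39.6 and 49.9 CPM in those without. Amdhd2 stood at 33.6 and 24.8 CPM with and at 63.4 and 53.9 CPM without, and Gnpda2 at 13.6 and 12.2 CPM with and at 14.5 and 10.8 CPM without. Tumour-like cells held Ogt at 79.2 CPM in both libraries and Oga at 51.9 and 51.1 CPM. They held Amdhd2 at 12.4 and 13.1 CPM and Gnpda2 at 13.6 and 11.5 CPM. Among macrophages without an Hmga2 UMI Oga (log2 ratio 0.33, 0.13 to 0.53) and Gnpda2 (-0.43, -0.81 to -0.04) were still past the threshold. The ratio was 0.18 for Ogt (0.01 to 0.35), -0.23 for Amdhd2 (-0.41 to -0.06) and -0.21 for Nagk (-0.40 to -0.03). These were under the threshold, with ranges that leave out 0. Gnpda1 was at 0.13 (-0.12 to 0.38). The share over all genes is not given for these cells. Over the whole lists, 2 of the 7 LLC and epithelial markers exceeded 10 CPM in macrophages of each library, with sums of 186 and 252 CPM, or 153 and 164 without Hmga2 (Krt8 at 0 in the knockdown). The 6 fibroblast markers, which the tumour-like cells also expressed, summed to 295 and 819 CPM, with 2 and 4 of them over 10 CPM and none at 0. In the purer macrophages Hmga2 is at 0 by definition, and doublets by Scrublet's own threshold are dropped. That doublet rule alone left only Gnpda2 past the threshold in macrophages. In the purer macrophages the log2 ratio was 0.01 for Ogt (-0.18 to 0.21), 0.18 for Oga (-0.05 to 0.40) and -0.15 for Nagk (-0.35 to 0.04). It was 0.22 for Gnpda1 (-0.04 to 0.49) and -0.11 for Amdhd2 (-0.29 to 0.07). Gnpda2 was at -0.48 (-0.91 to -0.06), the only 1 of the 6 past the threshold there (6.67% of genes higher, 6.92% lower). It stood at 14.4 CPM (12.7 to 16.2) in purer control and 10.3 CPM (8.63 to 12.2) in purer knockdown macrophages.

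In T cells the counts were smaller: 2 of the 6 genes, Ogt and Oga, reached 100 UMIs in a library, and neither passed (16.9% of 6002 genes did, 11.4% higher and 5.48% lower). The log2 ratio was -0.09 for Ogt (-0.38 to 0.20) and 0.32 for Oga (-0.01 to 0.64), just under the threshold. The other 4 lay between -0.23 (Gnpda1) and 0.32 (Gnpda2), each with a range that includes 0, so differences of this size were not detectable at this depth. In purer T cells Ogt was at -0.17 and Oga at 0.22, and again neither passed (8.5% of 3378 genes higher, 6.19% lower).

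**Figure D4:**
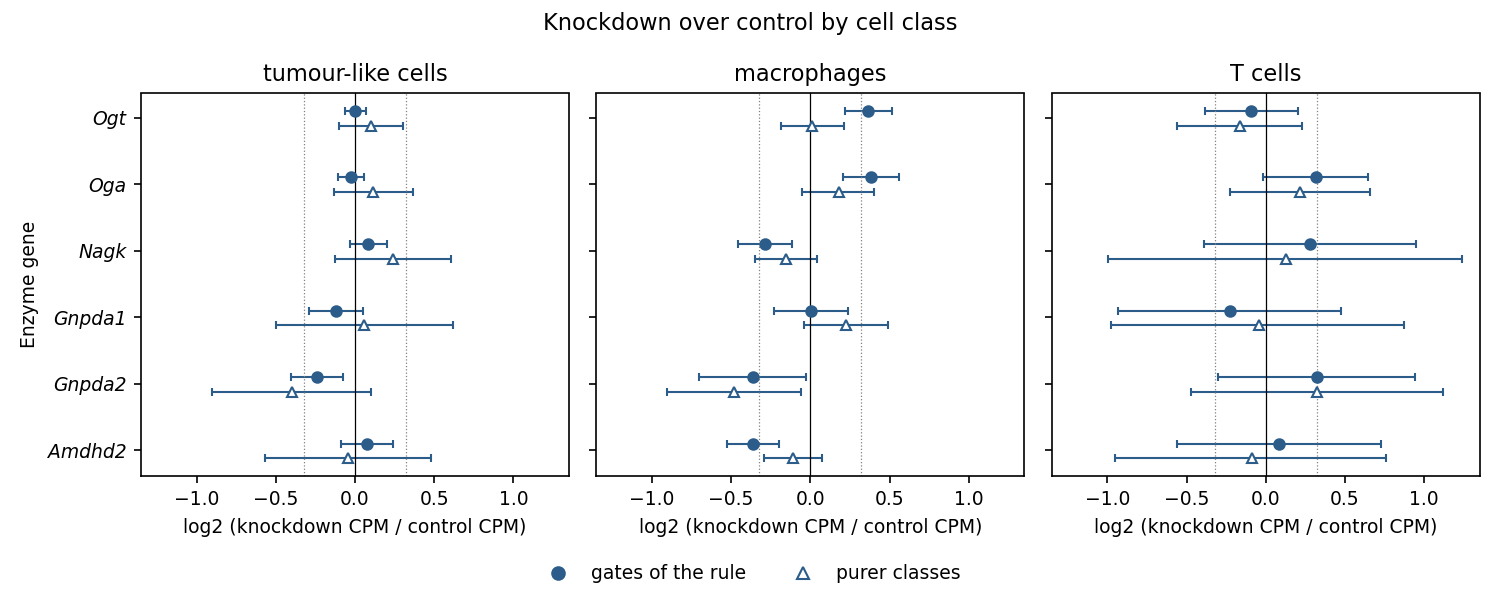
Log2 ratio of knockdown to control CPM for each enzyme gene in tumour-like cells, macrophages and T cells. Points are the classes as gated, triangles the purer classes, bars the range that both Poisson intervals allow, and dotted lines the threshold of 0.32; in macrophages Ogt moves from 0.37 to 0.01 between the settings, while Gnpda2 lies below 0 in both.

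Tumour-like cells were not uniform. In cycling cells (Mki67 plus Top2a at 2 or more per 10000, 1614 and 1832 cells) Amdhd2 stood at 10.3 and 11.1 CPM, against 13.9 and 14.6 CPM in the others. Ogt was likewise lower in cycling cells, at 67.9 against 87.2 CPM in the control and 71.8 against 85.0 CPM in the knockdown. Nagk (21.3 against 26.1 CPM, and 23.5 against 27.1) and Gnpda2 (11.9 against 14.8 CPM, and 10.3 against 12.5) were lower too, and for these 4 genes the range of the log2 ratio left out 0 in both libraries, as it did, on the lower side, for 21.7% of the 12048 genes with at least 100 UMIs in the class (20.6% on the higher side). Oga (-0.05 in both libraries, log2) and Gnpda1 (0.01 and 0.05) had ranges that include 0. Cycling cells were also deeper, with a median of 25900 UMIs in the control (16546 in the rest) and 19151 in the knockdown (13160).

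Cells high in the collagens Col1a1, Col1a2 and Col3a1 (20 or more per 10000; 1511 and 1824 cells) had more Nagk, Amdhd2 and Gnpda2. Nagk stood in them at 33.2 against 21.3 CPM in the control and 33.8 against 22.3 CPM in the knockdown. Amdhd2 stood at 16.7 against 11.1 CPM and 16.5 against 11.7 CPM, and Gnpda2 at 16.5 against 12.7 CPM and 13.8 against 10.6 CPM. Ogt was higher by less, with a log2 ratio of 0.18 and 0.19, and Oga and Gnpda1 had ranges that include 0 in both libraries. So 4 of the 6 genes had a range above 0 in both libraries, as 29.3% of all genes did, with 19.2% below 0. Hmga2 was lower in these cells than in the class, at 108 and 136 CPM, and what part this has in the difference was not tested. Xist, which stood at 493 and 394 CPM in macrophages, was at 2.53 and 3.85 CPM in the collagen-high cells and at 2.88 and 3.99 CPM in all tumour-like cells.

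The 257 control and 68 knockdown cells with Krt16 or Klk8 (summed, 2 or more per 10000) held Gfpt2 at 23.5 and 2.48 CPM. They differed from the rest in the control in Nagk (34.5 against 23.5 CPM), Gnpda1 (17.8 against 11.7) and Amdhd2 (16.0 against 12.2). In the knockdown the same genes stood at 31.4, 13.2 and 11.6 CPM there, with ranges of the log2 ratio that include 0. Cells with Cryab or Krt14 (184 and 344 cells) differed from the rest in the knockdown alone, with Gnpda1 at 15.8 against 10.8 CPM, Ogt at 64.5 against 80.4 CPM and Amdhd2 at 8.13 against 13.5 CPM. In the 53 control and 74 knockdown cells with Csmd3 or Robo2, Ogt stood at 146 against 78.6 CPM in the control, with a log2 ratio of 0.89 (0.58 to 1.19). In the knockdown it stood at 94.6 against 79.1 CPM there, with a range that includes 0 (-0.10 to 0.60). In the 59 and 36 cells with Tnnt2 or Tafa5, Ogt stood at 101 against 78.9 CPM in the control (log2 0.06 to 0.64) and at 82.1 against 79.2 CPM in the knockdown (-0.39 to 0.47). None of the 6 genes had a range on one side of 0 in both libraries in any of these 4 subsets. Among all genes 2.54% lay above and 2.94% below 0 in both libraries for the Krt16 or Klk8 subset, and 4.6% and 13.2% for the Cryab or Krt14 subset. The shares were 7.92% and 5.24% for the Csmd3 or Robo2 subset and 1.84% and 2.72% for the Tnnt2 or Tafa5 subset. Whether these contrasts differ between the libraries was not tested.

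**Figure D5:**
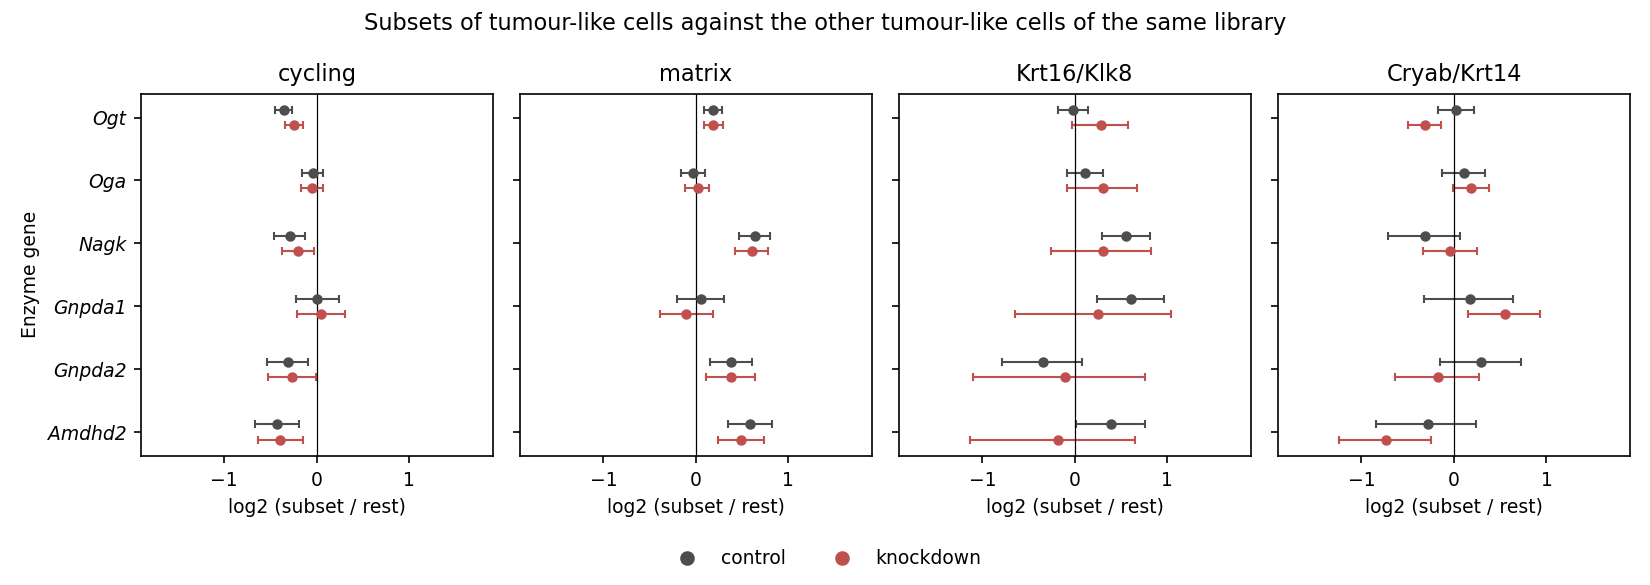
Log2 ratio of CPM in 4 subsets of tumour-like cells against the other tumour-like cells of the same library, control in grey and knockdown in red, with bars for the range that both Poisson intervals allow. Ogt, Nagk, Gnpda2 and Amdhd2 lie below 0 in cycling cells and above 0 in matrix cells in both libraries.

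Other genes of the pathway were counted by lists. Of 10 genes of glycan breakdown, most of them lysosomal, 6 were over 2-fold higher in macrophages than in tumour-like cells in both libraries and none lower (16% of all genes were higher and 15.5% lower), with a median log2 ratio of 1.36 against -0.27 over all genes. Engase, whose enzyme acts in the cytosol, was among the 6, at 2.52-fold and 2.42-fold. Manba, a lysosomal mannosidase, was 6.12-fold and 4.20-fold higher. Hexa, a hexosaminidase subunit, was 3.75-fold and 2.60-fold higher. Of 5 tested synthesis genes 2 were lower in macrophages and none was past 2-fold higher, with a median of -0.96. Gfpt1 (1.17-fold and 1.15-fold) and Uap1l1 (1.33-fold and 1.10-fold) lay above the tumour-like level in both libraries. Gnpnat1, which acetylates glucosamine-6-phosphate, stood at 16.8 CPM in control macrophages against 57.9 CPM in tumour-like cells, and at 20.2 against 53.6 CPM in the knockdown. Uap1, which makes UDP-GlcNAc, stood at 41.3 against 96.5 CPM and 50.4 against 115 CPM. In the purer classes 5 of 9 glycan breakdown genes were higher and 3 of 5 synthesis genes lower (18.7% and 21.5% of all genes), with Pgm3 (2.58-fold and 2.48-fold) beside Gnpnat1 and Uap1. Neither list holds any of the 6 genes.

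Of 7 sialic acid genes none was past 2-fold in both libraries between macrophages and tumour-like cells. Of 11 genes for partners and targets of OGT, Tet2 (5.08-fold and 4.02-fold) and Tet3 (2.14-fold and 2.03-fold), which oxidise methylated cytosine, were higher in macrophages, a share near the 16% of all genes. In purer cells Tet3 lay just under 2-fold (1.95-fold and 1.98-fold), and the sialic acid transporter gene Slc35a1 was counted as lower, by 2.44-fold and 3.16-fold. Of 9 genes for sugar entry and nucleotide sugar transport, Hk3, a hexokinase, was higher, at 68.4 CPM against 0.463 in the control and 57.1 against 0.639 in the knockdown. In T cells against macrophages 5 of the 10 glycan breakdown genes, the sialic acid gene Renbp and Hk3 were lower, as were 10.2% of all genes. In the purer classes 4 of 9 glycan breakdown genes, Renbp, Hk2, Hk3 and Uap1l1 were lower in T cells, and Gnpnat1, Hk1 and Trak2 higher (14.1% and 12.2% of all genes). Against tumour-like cells, T cells had Manba (1 of 10 glycan breakdown genes) and Tet2 (1 of 11 partner genes) higher, shares near that of all genes (11.7% higher, 7.42% lower). The median log2 ratio was 0.12 over the glycan breakdown list and -0.04 over all genes. Over the purer cells that median was -0.66 against -0.14 over all genes, with Hexa, Naglu and Aga lower of 7 tested and none higher (18.5% of all genes lower, 12.9% higher). There Pgm3, Uap1l1 and Renbp were also lower in T cells, and Tet2 and Cmas higher.

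Between the knockdown and the control, few of these genes passed the same threshold. In tumour-like cells Gfpt2 was lower (1 of 6 synthesis genes), with the drop in the Krt16 or Klk8 subset described above. Tet2 was higher (1 of 11 partner genes), at 9.76 CPM in the control and 12.9 in the knockdown. This share is near the 7.95% of all genes that were higher (1.94% were lower). None of the 10 glycan breakdown, 7 sialic acid or 8 entry genes passed. In the purer tumour-like cells Tet2 did not pass (log2 ratio 0.30, range -0.21 to 0.82), and Gfpt2 had too few UMIs to be tested. There Uap1 (95.2 and 127 CPM), Hexa (149 and 196 CPM) and Slc17a5 (9.13 and 11.5 CPM, with a range that includes 0) were higher, as were 6.51% of all genes. In macrophages none of 5 synthesis or 11 partner genes passed, where 22.7% of all genes were higher and 5.51% lower. Of the 10 glycan breakdown genes 3 were lower, among them Naglu (46.4 and 35.7 CPM) and Hgsnat, which acetylates heparan sulfate during its breakdown (28.4 and 22.1 CPM), and of these only Hgsnat passed in the purer macrophages. Slc35a1 was higher and Npl lower among 8 sialic acid genes, and Slc35a3 and Slc35d1 were higher among 9 entry genes, a share near that of all genes. None of these 4 passed in the purer macrophages, where Slc35b4 and the partner gene Nup62 were lower instead (6.92% of all genes lower, 6.67% higher). In T cells Gfpt1 was higher and Gnpnat1 lower of 4 synthesis genes, and Hcfc1 and Tet2 were higher of 8 partner genes, where 11.4% of all genes were higher and 5.48% lower. Of these 4 only Tet2 had a range without 0 (log2 0.07 to 1.05). In the purer T cells none of the 4 reached 100 UMIs in a library, so none was tested. There Uap1, the 1 synthesis gene tested, and Slc2a1, of 3 entry genes, were lower with ranges that include 0, and the 1 partner gene tested did not pass.

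The 2 genes most like each enzyme gene were found by Pearson correlation of log2(CPM + 1) over 8 points, from the 4 classes that held 50 or more cells on both sides (tumour-like cells, macrophages, T cells, monocytes) in 2 libraries, among 4734 genes. The points share their libraries and depth, so the values are a description. The 4734 genes had at least 100 UMIs in each main class of both libraries, which Ogt and Oga also had and Nagk, Gnpda1, Gnpda2 and Amdhd2 did not. For these 4 the knockdown monocytes gave 8, 11, 5 and 9 UMIs. Amdhd2 was most like Snx5 and Scp2 (r = 0.99 each), Nagk most like Lamp1 and Ninj1 (0.98 each), and Gnpda1 most like Ccdc12 and Kdm6b (0.99 each). Ogt was most like Snrnp48 (0.98) and Mllt3 (0.97), Oga most like Dgkh (0.99) and Adamts6 (0.98), and Gnpda2 most like Tyms and Crbn (0.95 each). Among the 6 themselves the highest value was that of Ogt and Oga (0.93), followed by Nagk and Amdhd2 (0.79), and the lowest that of Ogt and Nagk (-0.62).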

How the data were processed

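The authors deposited, for each tumour, a matrix of UMI counts (whole numbers) by gene and cell barcode. Per the file headers Cell Ranger 6.1.0 made it, whereas the submitters' processing notes name Cell Ranger 3.1.0. The genome build is not given in the sources used here. The 6 genes, the gene lists and the gates were chosen with earlier results of these data known. Cells with under 200 genes or over 20% mitochondrial UMIs were dropped, and Scrublet (scanpy 1.11.5) scores removed the top-scoring cells, a share of 0.8% for every 1000 cells in the matrix: 1148 control cells (9.59%) and 1322 knockdown cells (10.3%). A cell in more than 1 gate counted in each. UMIs were summed per class and library and divided by the class total. The ratio script was tested on simulated data.

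Genes named are the 6, list members past the fold thresholds (at most 4 a list and comparison by size where more passed), and the 2 genes most like each of the 6. Alternatives were other doublet rules, gates, weights, scalings (edgeR 4.0.16 TMM), thinning and folds, and the purer classes, which were added after seeing the data. RNA between classes was not subtracted. Some genes and the subsets of macrophages and T cells are not reported here.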

Additional observations from a re-analysis of the deposited data

How the results depend on the processing

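No paired analysis was possible because each group has 1 library. No log2 ratio of the 6 genes that had been counted turned its direction. Over all settings the knockdown ratio of Gnpda2 lay between -0.50 and -0.25 in macrophages and between -0.48 and -0.22 in tumour-like cells, while that of Ogt in macrophages lay between 0.01 and 0.37. The number of genes past the knockdown threshold (log2 0.32) in macrophages, 4 as reported, was 0 without doublet removal, 1 with Scrublet's own threshold (Gnpda2), 2 with stricter gates (Oga and Gnpda2), 2 after thinning (Gnpda2 and Amdhd2), 1 in the purer classes (Gnpda2) and 0 at 1.5-fold. With cells weighted equally it was 4, with Nagk in place of Ogt. In tumour-like cells, 0 as reported, it was 1 with stricter gates and 1 in the purer classes, Gnpda2 each time. For this class both use the same gate, so they are not separate checks. In T cells it was 1 with Scrublet's own threshold (Oga). Between macrophages and tumour-like cells, 2 as reported, it was 1 without doublet removal (Amdhd2) and 3 at 1.5-fold (Nagk, Gnpda1 and Amdhd2). For T cells against tumour-like cells, 0 as reported, it was 2 with cells weighted equally, 2 in the purer classes and 3 at 1.5-fold. For T cells against macrophages, 0 as reported, it was 2 with Scrublet's own threshold, 2 with cells in 1 gate only and 2 with stricter gates. Each time these were Nagk and Amdhd2, lower in T cells. It was 2 with cells weighted equally (Gnpda2 higher and Nagk lower), 5 in the purer classes and 4 at 1.5-fold. Only the counts as reported and in the purer classes have a share over all genes, given above. The other counts have none beside them and are a description of the settings.

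With cells weighted equally the Oga share was 38.3% in control and 37.6% in knockdown tumour-like cells and 38.1% in control macrophages, and in purer knockdown macrophages it was 44.3%. The Gnpda1 share was 40.9% in control tumour-like cells with stricter gates and 40.9% in the purer class, which for this class share their gate. Without doublet removal it was 61.1% in control and 66.4% in knockdown macrophages, it was 75.7% in purer knockdown macrophages, and with cells weighted equally 38.9% in control T cells. The cause of these shifts was not tested. Gnpda1, Gnpda2, Nagk and Amdhd2 had under 100 UMIs in T cells, which limits what could be seen there.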
